A study of Mus musculus with 5 samples.

Results

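Deep intragenic KLF5 summits are the V5-KLF5 peaks whose summit falls within a protein-coding gene of chromosomes 1 to 19 and lies over 10 kb from both ends of every protein-coding gene. The members were picked by position alone, on the RefSeq genes of GRCm38 (mm10), and strength played no part. The rule gave 9606 summits of the 45378 in the V5-KLF5 list, or 21.5% (95% interval 21.1 to 21.8) of the 44760 summits on chromosomes 1 to 19. They lay in 3569 genes, and 43 of them lay in more than 1 gene because genes overlapped.

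The list comes from chromatin immunoprecipitation followed by sequencing (ChIP-seq) with an antibody against the V5 epitope. The cells were wild-type mouse embryonic stem (ES) cells from C57B6/J mice that overexpress KLF5 carrying the V5 tag. The controls were a mouse normal IgG immunoprecipitate and input DNA of the same cells, and, from wild-type ES-D3 cells without the tag, input DNA and the product of the same anti-V5 immunoprecipitation. A header of the untagged list names the line JM8.N4 where the label names ES-D3, so the line of that control is uncertain. The protein was overexpressed, and the labels do not name the promoter that drove it. Each of the 5 groups was 1 library. No difference here therefore has a replicate check, no test was run, and every interval covers counting error within 1 library only. The V5-KLF5 immunoprecipitate kept 23.2 M tags after duplicates were removed, the IgG immunoprecipitate 24.5 M and the untagged V5 immunoprecipitate 21.8 M. The IgG list held 3 peaks and the untagged V5 list 0, and none of the 9606 deep intragenic peaks overlapped one of them.

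KLF5 belongs to the Krüppel-like family, whose zinc fingers bind GC-rich and CACCC-type sequence. In mouse ES cells it acts with KLF2 and KLF4 to sustain self-renewal, and in the embryo it is needed for the trophectoderm and the inner cell mass. Sites far inside a gene can be enhancers, which often sit in introns, or starts of shorter transcripts and of antisense RNAs. Peak lists alone do not tell these apart, but a start that RefSeq annotates can be looked up.

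Transcript starts inside genes gave the sequences under part of the summits. RefSeq start windows (GRCm38.p6) run from 250 bases before to 50 bases after an annotated start. Of the 9246 deep intragenic summits on the chromosomes with such windows, 264 (2.86%, interval 2.53 to 3.22) fell inside a window, and 595 (6.44%, interval 5.94 to 6.95) lay within 1 kb of a start. The 8 windows below hold the strongest of the 264 and show the sequence KLF5 was found on. They are written 5′ to 3′ on the strand of the transcript. Capitals mark each match to CCNCNCCC on either strand, the core that KLF and SP zinc fingers recognise, and matches that overlap run together.
Gm52705 in Ptprf, chr4:118260490-118260789, plus strand: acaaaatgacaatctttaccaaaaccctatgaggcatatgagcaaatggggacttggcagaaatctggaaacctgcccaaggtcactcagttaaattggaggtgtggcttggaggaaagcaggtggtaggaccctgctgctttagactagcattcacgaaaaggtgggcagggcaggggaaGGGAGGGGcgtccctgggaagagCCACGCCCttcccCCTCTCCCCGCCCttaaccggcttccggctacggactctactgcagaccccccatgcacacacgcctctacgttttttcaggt
Gm39098 in Tacc2, chr7:130645908-130646207, minus strand: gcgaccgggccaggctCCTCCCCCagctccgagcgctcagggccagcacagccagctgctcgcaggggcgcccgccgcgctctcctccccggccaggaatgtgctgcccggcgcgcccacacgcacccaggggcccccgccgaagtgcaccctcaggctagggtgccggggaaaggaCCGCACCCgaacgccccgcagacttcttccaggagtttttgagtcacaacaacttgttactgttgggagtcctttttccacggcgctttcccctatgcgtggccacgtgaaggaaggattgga
Gm29695 in Lemd1, chr1:132200836-132201135, plus strand: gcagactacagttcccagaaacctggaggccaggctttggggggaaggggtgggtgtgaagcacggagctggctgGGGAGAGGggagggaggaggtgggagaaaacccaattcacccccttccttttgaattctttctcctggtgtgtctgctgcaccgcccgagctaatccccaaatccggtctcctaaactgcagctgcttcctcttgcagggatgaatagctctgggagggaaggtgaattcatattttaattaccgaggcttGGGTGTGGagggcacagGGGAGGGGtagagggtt
Rasgef1a, chr6:118066135-118066434, plus strand: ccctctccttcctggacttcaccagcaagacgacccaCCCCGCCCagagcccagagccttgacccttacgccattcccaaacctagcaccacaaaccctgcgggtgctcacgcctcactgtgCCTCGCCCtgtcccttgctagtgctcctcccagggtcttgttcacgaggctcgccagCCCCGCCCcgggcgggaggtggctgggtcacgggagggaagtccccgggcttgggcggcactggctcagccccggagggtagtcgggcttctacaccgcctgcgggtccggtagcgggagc
Abl1, chr2:31759689-31759988, plus strand: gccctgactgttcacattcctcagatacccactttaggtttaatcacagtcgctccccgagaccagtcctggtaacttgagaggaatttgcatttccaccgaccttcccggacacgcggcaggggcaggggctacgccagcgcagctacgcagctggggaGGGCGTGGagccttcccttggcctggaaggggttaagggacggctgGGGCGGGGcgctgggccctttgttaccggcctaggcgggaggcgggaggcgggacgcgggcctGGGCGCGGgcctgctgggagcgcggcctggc
2310043M15Rik in Dop1b, chr16:93794852-93795151, minus strand: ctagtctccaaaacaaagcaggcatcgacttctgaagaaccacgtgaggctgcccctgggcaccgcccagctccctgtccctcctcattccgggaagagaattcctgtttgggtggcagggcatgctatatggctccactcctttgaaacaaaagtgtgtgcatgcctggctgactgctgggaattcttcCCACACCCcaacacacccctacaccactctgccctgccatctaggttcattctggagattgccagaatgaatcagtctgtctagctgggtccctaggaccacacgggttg
1700019D03Rik, chr1:52953565-52953864, minus strand: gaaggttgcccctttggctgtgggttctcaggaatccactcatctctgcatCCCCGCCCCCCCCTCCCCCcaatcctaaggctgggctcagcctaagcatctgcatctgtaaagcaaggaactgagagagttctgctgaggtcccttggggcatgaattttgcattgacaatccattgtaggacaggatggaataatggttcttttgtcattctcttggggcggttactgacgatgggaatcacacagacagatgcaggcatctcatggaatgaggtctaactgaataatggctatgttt
Gcnt1, chr19:17356618-17356917, minus strand: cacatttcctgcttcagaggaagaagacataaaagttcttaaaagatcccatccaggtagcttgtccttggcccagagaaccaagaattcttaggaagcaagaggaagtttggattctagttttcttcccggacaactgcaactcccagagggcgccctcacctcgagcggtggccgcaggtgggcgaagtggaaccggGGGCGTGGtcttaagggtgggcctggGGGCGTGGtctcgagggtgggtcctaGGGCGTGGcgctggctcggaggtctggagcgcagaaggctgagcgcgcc

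In these windows the summit stood close to the start by design, as they reach only 250 bases before it and 50 after. It lay 20 bases before the start of Gm52705, a long noncoding RNA (lncRNA) transcribed against the direction of its host Ptprf, which encodes a receptor-type tyrosine phosphatase. That peak had a pileup of 125 tags and a fold enrichment over input of 29.6. Gm39098, an lncRNA antisense to Tacc2, had a fold enrichment of 23.7 with the summit 131 bases before its start, and Gm29695, on the strand of its host Lemd1, had 22.1 with the summit 110 bases before. Rasgef1a, a Ras guanine nucleotide exchange factor gene, had 21.8 at an inner start of its own, 25259 bp from its nearer end. The inner start of Abl1, which encodes a non-receptor tyrosine kinase, had 20.8, with the summit 142 bases before the start and 46371 bp from the nearer end of the gene. The lncRNA 2310043M15Rik, antisense to Dop1b, had 18.6, and inner starts of 1700019D03Rik and of the glycosyltransferase gene Gcnt1 had 18.4 and 17.3. All 8 windows held at least 1 match to the KLF core, 1700019D03Rik the most with 5 overlapping matches and 2310043M15Rik the fewest with 1.

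Over all 295 windows that held a deep intragenic summit, 78.6% (interval 73.5 to 83.2) contained the KLF core, against 36.6% (34.8 to 38.4) of the 2854 windows inside genes that held no summit. The share among all 31396 start windows of chromosomes 1 to 19, none of them on chromosome 18, was 49.8%. The windows also differed in base composition, with a median GC content of 61.0% and 17 CpG per window where a deep summit lay, and 48.7% and 4 CpG where none lay. Within windows of under 50% GC, 60.0% (18 of 30, interval 40.6 to 77.3) of those with a summit and 21.7% (19.7 to 23.8) of those without had the core. At 50 to 60% GC the shares were 72.5% (63.1 to 80.6) and 47.9% (44.7 to 51.1). At 60% GC or more they were 86.5% (80.2 to 91.5) and 80.9% (75.9 to 85.3), and these intervals overlap. The part of base composition in the difference was not tested further. Windows at the gene ends resembled the inner ones, with the core in 81.1% of 5120 windows that held a summit and 49.2% of 12715 that held none.

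**Figure D1:**
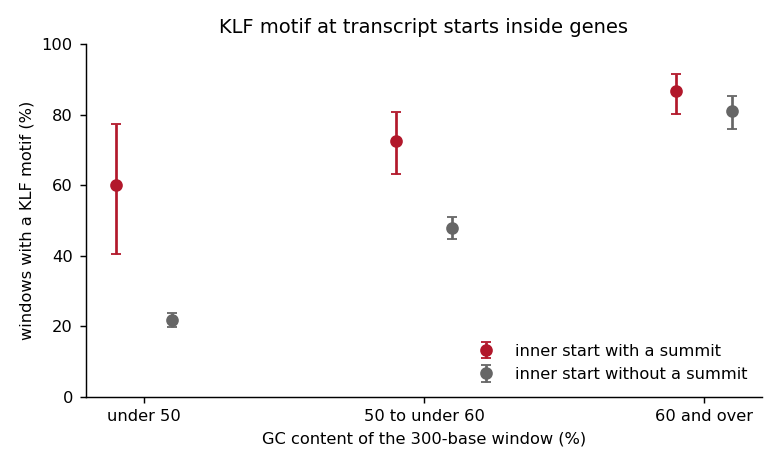
Share of 300-base start windows inside genes that hold CCNCNCCC on either strand (y axis, %), by GC content of the window (x axis, %), for windows with a deep intragenic V5-KLF5 summit (red) and without a summit (grey). Points are shares and bars are exact 95% intervals, and the gap runs from 60.0% against 21.7% below 50% GC to 86.5% against 80.9% at 60% GC or more.

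Among 8 other motifs, the AP-2 letters GCCNNNGGC, themselves GC-rich, differed in the same direction. They were in 25.1% (20.2 to 30.4) of the windows with a deep summit and in 9.60% (8.54 to 10.7) of those inside genes without one, beside 16.7% of all windows. The octamer ATGCAAAT bound by OCT4 was in 2.71% and 2.00%, the SOX letters CATTGT in 11.2% and 14.9%, the TEAD letters GGAATG in 15.9% and 17.1%, the STAT3 letters TTCCNNGAA in 4.41% and 4.91%, the AP-1 letters TGANTCA in 6.78% and 9.36%, and the E-box CACGTG in 5.76% and 4.48%, in the same order. Over all windows the octamer was in 1.75%, CATTGT in 12.2%, GGAATG in 14.6%, TTCCNNGAA in 4.88%, TGANTCA in 7.84% and CACGTG in 7.14%. The ESRRB letters AAGGTCA were in 2.03% (0.750 to 4.37) of the windows with a deep summit, against 5.89% (5.05 to 6.81) of those without, and in 4.69% of all. Windows at gene ends differed in the same direction for these letters, with 2.48% where a summit lay and 4.42% where none lay. No motif other than the KLF core was split by GC content. Both strands were searched, and matches of different motifs may share bases. Of the 232 windows with the KLF core, 157 (67.7%) had it within 50 bases of the summit, with a median distance of 30.5 bases. Core and summit share a window of 300 bases that can hold several matches. No background was set beside these distances, so they do not show that the core is centred on the summit. Summits in windows with the core had a median fold enrichment of 6.44 and those in the 63 windows without it 4.91. The summit lay before the start in 228 of the 295 windows, at a median of 70 bases. Of the 300 bases of a window 250 lie before the start, so this share does not show a preference for that side.

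Of the 595 summits within 1 kb of an annotated inner start, 417 were nearest to a start of their own host gene, 134 to a start of another gene on the opposite strand and 8 to a start of another gene on the same strand, while for 36 the host strand was unknown or mixed. Their median fold enrichments were 5.84 at own starts, 4.79 at opposite-strand starts and 4.54 at the 8 same-strand starts. Seen from the starts, 15.6% (13.8 to 17.6) of the 1419 protein-coding starts that lie deep inside a gene held a summit in their window, and 4.27% (3.37 to 5.34) of the 1731 lncRNA starts there. Among all start windows, 19.9% held a summit. At gene ends the shares were 29.0% of protein-coding and 25.3% of lncRNA starts. The difference between the kinds of transcript was thus 11.4 percentage points deep inside genes and 3.70 at the ends. At 1 to 10 kb from an end the shares were 21.7% and 7.78%, so a wide gap was not particular to deep starts. Most deep intragenic summits, 8651 of 9246, had no start with a window within 1 kb. Windows were at hand for 7454 of the 9425 genes with qualifying sequence. Inner starts of the other genes were not seen, so the 8651 may be too high.

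The density of summits inside genes depended on the distance to the gene ends. Sequence that meets the rule covers 702 Mb, 28.8% of the 2441.5 Mb between the first and last RefSeq gene of each chromosome, and it held 13.7 summits per Mb (interval 13.4 to 14.0). Sequence outside genes and over 10 kb from any end, which covers 1221 Mb and includes sequence that cannot be mapped, held 8.38 per Mb (8.22 to 8.54), a ratio of 1.63. Sequence 1 to 10 kb from an end held 29.4 per Mb and that within 1 kb held 159. Taken against all other sequence, with 20.2 per Mb, the density deep inside genes was lower, at a ratio of 0.677.

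**Figure D2:**
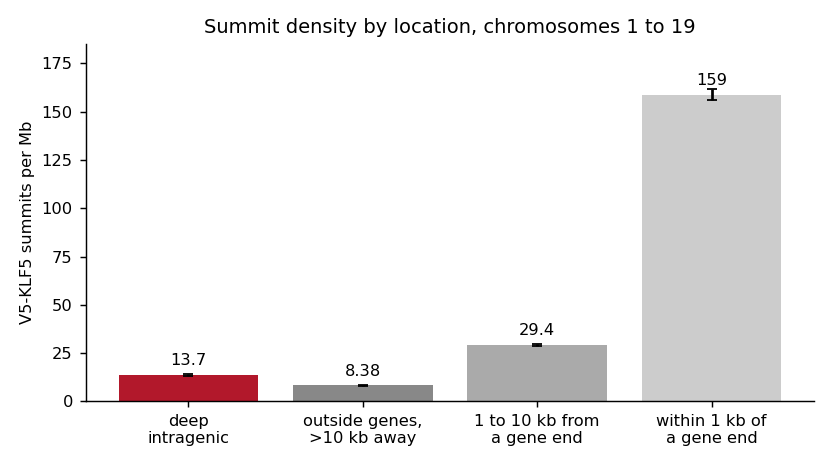
V5-KLF5 summits per Mb of sequence (y axis) in 4 location classes of chromosomes 1 to 19 (x axis), with exact 95% Poisson intervals as bars. Deep intragenic sequence held 13.7 summits per Mb, more than sequence outside genes at over 10 kb (8.38) and less than sequence nearer to gene ends (29.4 and 159).

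In the same ranges of distance from a gene end, the inside and the outside of genes were closest at 10 to 20 kb and farthest apart beyond 100 kb. At 10 to 20 kb there were 20.1 summits per Mb (19.3 to 20.8) inside genes and 19.03 (18.3 to 19.8) outside, and these intervals overlap. At 20 to 50 kb there were 17.1 (16.5 to 17.7) and 15.4 (14.9 to 15.9). At 50 to 100 kb there were 12.8 (12.2 to 13.4) and 10.9 (10.5 to 11.4). Beyond 100 kb there were 6.10 (5.76 to 6.45) inside and 3.48 (3.34 to 3.62) outside, where the intervals stand farthest apart. That range has no upper limit and covers 202 Mb inside genes and 690 Mb outside. Distances within it were not matched, so its gap is not one at equal distance. The strength of the deep summits did not fall with distance in the same way, with a median fold enrichment of 5.12 in each of the first 3 ranges and 5.18 beyond 100 kb.

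**Figure D3:**
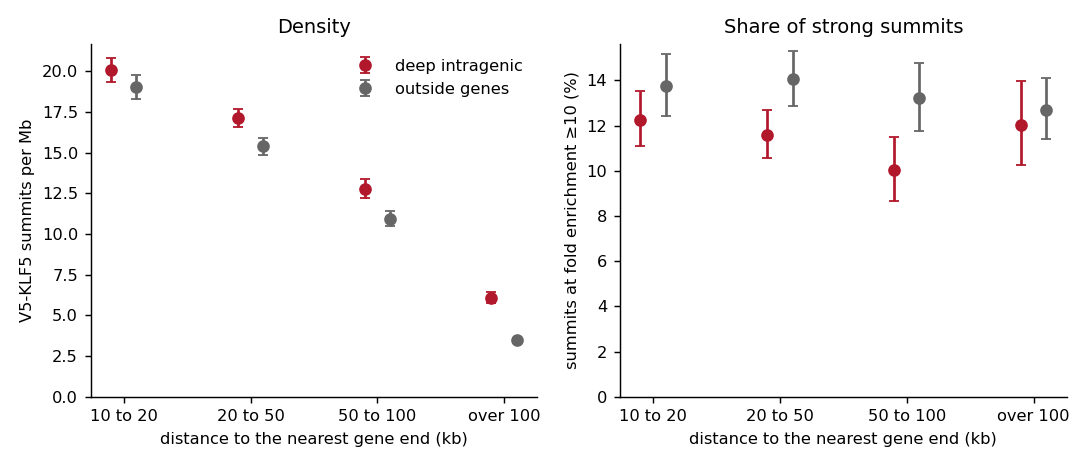
V5-KLF5 summits per Mb (left, y axis) and share of summits with a fold enrichment of at least 10 (right, y axis, %), by distance to the nearest end of a protein-coding gene (x axis, kb), deep intragenic (red) and outside genes (grey), with exact 95% intervals. Density inside genes fell with each step, to 6.10 per Mb beyond 100 kb, while the share of strong summits stayed between 10.0% and 12.3%.

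Deep intragenic summits were close in strength to those elsewhere, and the median was lower than that of all other summits together. Fold enrichment, the authors' ratio of the pileup to the input background at the summit, had a median of 5.12 (quartiles 4.14 and 7.21) over the 9606 members and 5.28 (quartiles 4.15 and 7.57) over the 35154 other summits, a log2 difference of -0.044. By class, the other medians were 5.60 within 1 kb of a gene end, 5.07 at 1 to 10 kb and 5.18 outside genes at over 10 kb. The members stood below 2 of these classes. They stood above the class at 1 to 10 kb, but its interval (4.99 to 5.12) overlaps theirs (5.09 to 5.17). The median pileup was 23 tags and 24 tags and the median peak length 396 bp and 437 bp, members first in both pairs. The input background had a median of 3.45 tags in both. Fold enrichment reached 10 in 1110 members, or 11.6% (interval 10.9 to 12.2), beside 13.0% of all summits on these chromosomes. Among the other summits the share was 13.4% (13.1 to 13.8). It was 13.5% (12.8 to 14.2) outside genes at over 10 kb, 12.4% (11.8 to 12.9) at 1 to 10 kb from an end and 14.6% (13.9 to 15.2) within 1 kb. The members ran from 2.12 to 52.1. There were 154 with a fold enrichment of at least 20 and 28 with at least 30. The 1110 strong members had a median length of 712 bp, against 372 bp for the weaker members, and 27.2% of them had another summit within 2 kb, against 21.2%.

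**Figure D4:**
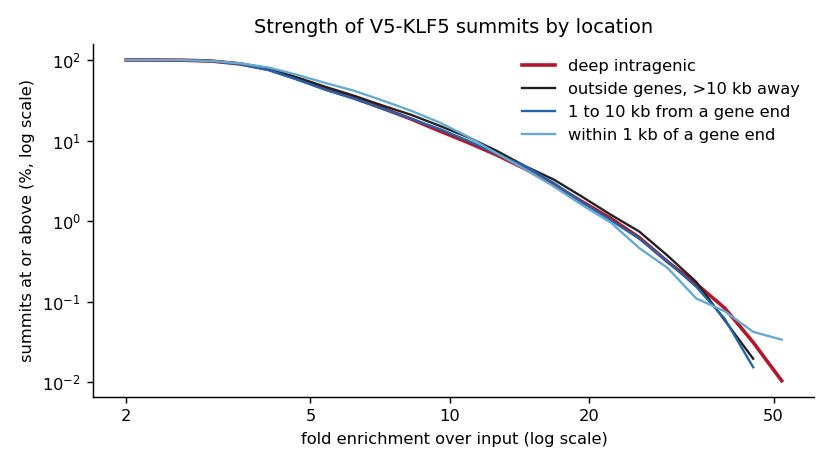
Percentage of summits at or above a given fold enrichment (y axis, log scale) against fold enrichment over input (x axis, log scale) in the 4 location classes. The deep intragenic curve (red) runs close to the others over the whole range, with 11.6% of its summits at a fold enrichment of 10 or more.

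At the 10 kb limit, the 3 members nearest to the limit had fold enrichments of 5.12 in Frmpd1, 3.66 in Klhl26 and 4.93 in Macrod1, at 10001, 10001 and 10003 bp from an end. The 3 summits just short of it inside a gene had 6.62 in Tmem132e, 6.37 in Zdbf2, where Gpr1 overlaps, and 4.34 in Tmem255b, at 9994, 9993 and 9992 bp.

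The strongest deep summits lay in genes of very different function. Tmem38b, which encodes a cation channel of the endoplasmic reticulum, led with a fold enrichment of 52.1 and a pileup of 301, at a peak on chromosome 4 from 53839734 to 53840891. The tyrosine kinase gene Src followed with 47.4, at 157456892 to 157457910 on chromosome 2, which is 33.7 kb from its 5′ end. Its 2 other deep summits had 5.32 and 3.66, so 1 of the 3 stood far above the others. Sipa1l3, of a family of Rap GTPase-activating proteins, had 47.0 at 29350063 to 29351231 on chromosome 7, the strongest of 17 deep summits in a gene of 199 kb. Cdyl2, a chromodomain gene, had 45.1, and Ptprf had 43.1 at a summit apart from the Gm52705 start. Ncoa7, a nuclear receptor coactivator gene, had 42.4 at 70273 bp from its 5′ end, and Atrnl1 had 42.0. Cog2, for a subunit of the Golgi COG complex, had 41.7, and Fntb, for the beta subunit of protein farnesyltransferase, had 38.7.

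The rest of the top 20 ran from 38.3 to 32.1. Zmynd8, which encodes a reader of modified histones, had 38.3, and Snapc3, for a subunit of the complex that activates small nuclear RNA genes, had 38.0. Camkmt, a calmodulin lysine methyltransferase gene, had 37.8. C77080 had 37.5 over a peak of 2436 bp, and the channel gene Panx1 had 36.8. Dab2ip, for a Ras GTPase-activating protein, had 35.1. The peak in Schip1, overlapped by the readthrough gene Iqschfp, had 34.7 and stood 133798 bp from any gene end, the farthest of the 20. Frmd4a had 33.6, the cytolinker gene Plec 33.5, the RNA-binding protein gene Rbpms 32.6 and Nmnat2, for an enzyme of NAD synthesis, 32.1. The input background under these 20 peaks lay between 3.10, the genome-wide level that the caller uses as its lowest, and 5.37 tags.

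Some genes held many deep summits. Among the 9425 genes with sequence that meets the rule, 37.9% held at least 1. Of the 3569 host genes, 1674 (46.9%) held 1, 552 held at least 5 and 123 held at least 10. The 552 genes with at least 5 held 46.4% of all members. Gse1, which encodes a coiled-coil protein found with the CoREST corepressor, had the most, with 47 in a gene of 353 kb on chromosome 8. Its strongest 2 had 29.4 and 16.3 at 48.0 and 53.1 kb from the 5′ end, 7 in all reached 10, and the median was 5.12. Another group near the far end held summits with 12.7, 10.7 and 10.5 at 281, 309 and 310 kb. The last of these stood 231 bp from the miRNA gene Mir7687. Etl4 had 31 deep summits in 900 kb, up to 15.4, with none between 24 and 298 kb from its 5′ end. Rnf220, an E3 ubiquitin ligase gene, had 26, led by 28.9 at 123 kb.

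**Figure D5:**
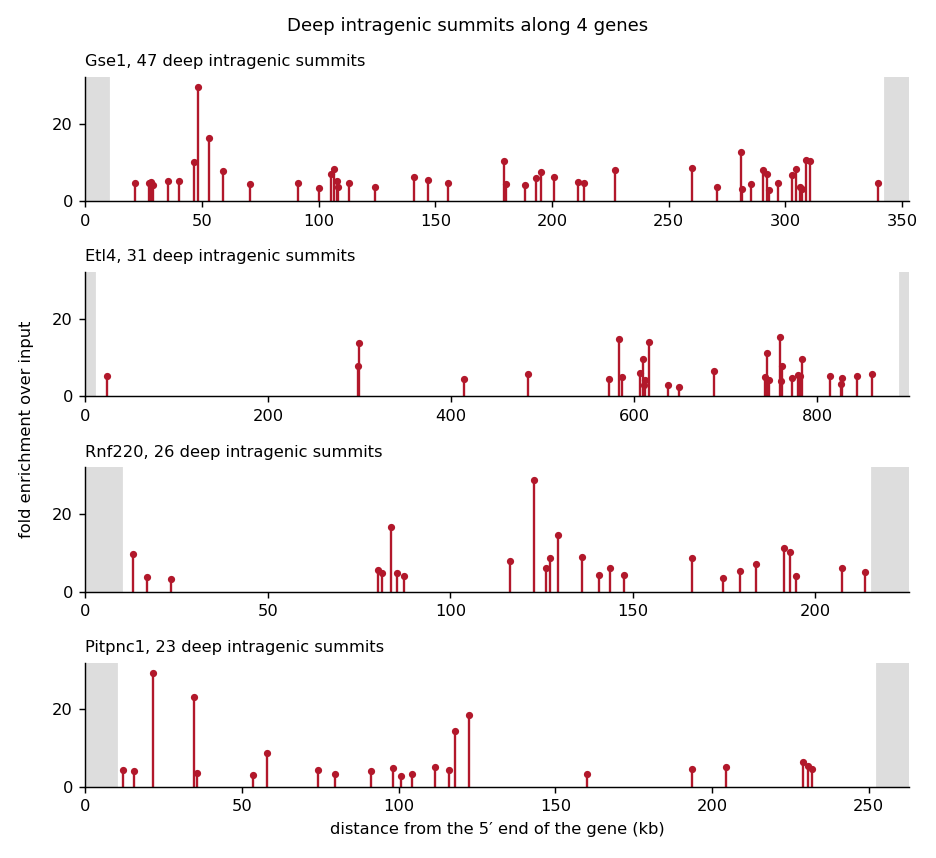
Fold enrichment over input (y axis) of each deep intragenic summit against its distance from the 5′ end of the gene (x axis, kb) in the 4 genes of known strand with the most such summits, Gse1, Etl4, Rnf220 and Pitpnc1, each axis spanning the gene and grey marking the outer 10 kb. Strong and weak summits stood in groups, and Gse1 had 47 summits of which 7 reached a fold enrichment of 10.

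Auts2, a gene of neurodevelopment, had 25 deep summits over 1106 kb, with the strongest at 12.4. Pitpnc1, a phosphatidylinositol transfer protein gene, had 23, up to 29.4. Ephb2, for a receptor tyrosine kinase of ephrins, had 22, and 6 of them reached a fold enrichment of 10. Msi2, for the RNA-binding protein Musashi 2, and Zbtb7c, a zinc-finger gene, had 22 each, and the calcium channel gene Cacna1a had 21. Cdh4, for R-cadherin, had 20. Relative to length, Nfic, for a nuclear factor I transcription factor, was the densest among genes with at least 5, with 9 deep summits in 15.7 kb of qualifying sequence. The strongest of the 9 had 15.9 and stood 495 bp from Mir1191b, and the others had 10.1 or less. C77080 had 8 in 21.8 kb, the latent TGF-beta binding protein gene Ltbp4 5 in 14.6 kb, all at 4.34 or less, the splicing factor gene Nova2 6 in 19.4 kb, the Rab GTPase-activating protein gene Tbc1d2 8 in 25.9 kb and the nucleoside transporter gene Slc29a3 6 in 20.8 kb.

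Long genes had fewer deep summits per Mb. Genes with up to 10 kb of qualifying sequence had 27.5 per Mb (24.5 to 30.8), those with 10 to 50 kb 22.0 (21.1 to 23.0), those with 50 to 200 kb 17.9 (17.4 to 18.5) and those with more 8.08 (7.78 to 8.38). The share of genes that held at least 1 went the other way, at 10.9%, 31.5%, 59.3% and 78.5%. Longer genes also have more sequence far from their ends, and that part was not separated from gene length here. Several very long genes held none. Dpp10, with 1494 kb of qualifying sequence, was the longest of these, followed by Gpc5, Lingo2, Csmd3, Nkain2, Sgcz, Ptprt, Galntl6, Dcc and Nrg3, with 1413 to 1048 kb each. Of these 10, Gpc5 and Ptprt had a summit within 1 kb of an end and the other 8 had none there either.

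Genes with deep summits more often had a summit at their own ends, which the rule did not use. A summit lay within 1 kb of an end in 65.1% (63.5 to 66.7) of the host genes and in 56.8% (55.5 to 58.1) of the 5856 genes with qualifying sequence and no deep summit. The gap was there in each range of length: 65.2% and 58.3% with up to 10 kb of qualifying sequence, where the intervals overlap, 69.3% and 58.1% with 10 to 50 kb, 65.3% and 53.9% with 50 to 200 kb, and 57.0% and 37.7% above. It was seen at both ends. Among genes of known strand, 63.8% of 2743 hosts and 55.3% of 4711 genes without a deep summit had a summit at the 5′ end, and 7.73% (6.76 to 8.79) and 5.26% (4.64 to 5.94) at the 3′ end.

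Along the gene, the summits were slightly more frequent on the 5′ side. Qualifying sequence of each gene of known strand was cut into 3 equal parts. The 5′ part held 35.4% (34.3 to 36.5) of 7464 pairs of a gene and a summit, the middle part 32.0% (30.9 to 33.0) and the 3′ part 32.6% (31.6 to 33.7). The median fold enrichment was 5.12 in each part. Another summit lay within 10 kb of 53.8% (52.8 to 54.8) of the members, against 51.6% (50.6 to 52.6) of the summits outside genes at over 10 kb. Within 2 kb the shares were 21.9% (21.0 to 22.7) and 21.6% (20.8 to 22.4), and these intervals overlap. Summits within 1 kb of a gene end and those 1 to 10 kb away had another within 2 kb in 36.6% and 36.4%. Between chromosomes the density of members ran from 10.0 per Mb of qualifying sequence on chromosome 3 to 19.1 on chromosome 11, with a median of 13.7.

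The pluripotency and LIF list held deep summits at a high density. This list and those below were chosen with earlier results of these data known. Of 30 genes of the pluripotency and LIF list, 13 had qualifying sequence and 9 of these held 40 deep summits. That is 44.9 per Mb (32.1 to 61.1), beside 13.7 per Mb over all genes. Esrrb with 13 and Tet2 with 7 weigh heavily in the 40, and the interval takes all summits as independent. Pou5f1, Nanog, Sox2, Klf2, Klf4 and Klf5 had no qualifying sequence, so the values do not cover them. Among all genes with 50 to 200 kb of qualifying sequence the density was 17.9 per Mb. The share of genes occupied was 69.2% (interval 38.6 to 90.9), beside 37.9% over all genes. The genes of the list are longer, with a median of 61.5 kb of qualifying sequence against 28.9 kb, and among all genes with 50 to 200 kb the share was 59.3%. The median of their strongest summits was 11.5, beside 6.46 over all host genes, and in this and the lists below the strongest of more summits per gene is higher by construction. Esrrb, which encodes an orphan nuclear receptor of naive ES cells, had the most, with 13. Its strongest 2 lay near its 3′ side, at 143 and 141 kb from the 5′ end, with 28.5 and 20.5, and the other 11 had between 3.92 and 8.23. Tfcp2l1, for a transcription factor of the LIF response, had 4, with 19.4 at 20.2 kb from the 5′ end and 7.19 or less at the others. Tet2, for a DNA demethylating dioxygenase, had 7, of which those at 11.4, 20.3 and 29.3 kb had 14.8, 14.0 and 13.6.

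Genes of LIF signalling were divided in their deep summits. Il6st, for the shared receptor subunit gp130, had 2, with 16.7 at 22.8 kb from the 5′ end and 5.40 at the other. Lifr, for the LIF receptor itself, had 5, led by 10.7, and Jak2, for a kinase below them, had 1 at 11.5. Jak1, for another such kinase, with 92.9 kb of qualifying sequence, and Stat3, for the transcription factor they activate, with 32.8 kb, had 0, as did Rif1 and Fbxo15. Jak1 and Stat3 each had a summit within 1 kb of the 5′ end, as did Il6st, while Lifr and Jak2 had none at either end. The other hosts of the list, Nr5a2, Tet1 and Jarid2, had 3, 2 and 3 deep summits of at most 5.17, 3.88 and 3.77.

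The trophectoderm, trophoblast and epithelial list had qualifying sequence in 17 of 29 genes. Of these, 11 held 47 deep summits, 33.8 per Mb (24.9 to 45.0), with a median strongest of 8.28. The share occupied was 64.7% (38.3 to 85.8), beside 37.9% over all genes. The transcription factor genes Gata3, Elf5, Tfap2a and Grhl3, the splicing factor gene Esrp1 and the junction gene Cgn held 0. Of these, Grhl3, Esrp1 and Cgn had a summit within 1 kb of an end, and Gata3, Elf5 and Tfap2a had none there. Grhl2, for a Grainyhead factor of epithelia, had 26.6 at 57.1 kb and 12.1 at 29.8 kb from its nearer end among 6. Pard3, for a polarity protein, had 24.9 and 13.9 at 373 and 375 kb from its 5′ end among 9, and 3 weaker ones within the next few kb. Tead4, for the factor that starts the trophectoderm programme, had 23.4 and 13.1 among 5. Cdh1, for E-cadherin, had the most, with 11 in 46.9 kb. The strongest 2 had 15.5 each, at 29.4 and 16.4 kb from its nearer end, and the next had 8.90. Tspan8, which has no summit near its ends, had 2 of up to 8.75.

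The Hippo and TEAD list had qualifying sequence in 22 of 26 genes, and 16 of these held 62 deep summits, 31.9 per Mb (24.4 to 40.9), with a median strongest of 10.7. The share occupied was 72.7% (49.8 to 89.3), beside 37.9% over all genes and 59.3% over those with 50 to 200 kb of qualifying sequence, where the list's median of 82.8 kb lies. Yap1 itself, with 52.6 kb, held 0, as did Lats1, Sav1, Mob1b, Fat4 and Dchs1. Of these, Yap1, Lats1, Mob1b and Fat4 had a summit within 1 kb of the 5′ end, and Sav1 and Dchs1 had none at either end. Beside Tead4, which both lists hold, Tead1 had 8, led by 16.6 and 11.3, and the scaffold gene Wwc1 had 4 with up to 15.7. Amotl1, for an angiomotin that binds YAP, had 14.2, and Ptpn14, a phosphatase gene whose product holds YAP back, had 8 with 13.9 and 11.0 at the top. Vgll4, for a TEAD cofactor, had 5, the strongest at 13.2.

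Genes of the actin, small GTPase and adhesion list held a deep summit in 31 of 35 cases (88.6%, interval 73.3 to 96.8) and 177 in all, 25.4 per Mb (21.8 to 29.5). These genes are long, with a median of 162 kb of qualifying sequence, beside the 28.9 kb over all genes. Over all genes the share was 37.9% and the density 13.7 per Mb. Among all genes with 50 to 200 kb of qualifying sequence they were 59.3% and 17.9 per Mb. Above 200 kb they were 78.5% and 8.08 per Mb. Sipa1l3 and Arhgap26, for GTPase-activating proteins, had 17 each, and Tns3 and Tns1, for the focal adhesion proteins tensin 3 and tensin 1, had 15 and 13. The strongest were at Sipa1l3, Tns3 with 27.6, Actn4 and Tiam2 with 19.04 and 18.7 at their only deep summit, and Actn1 and Tln2 with 17.3 each. Actn4 and Actn1 encode alpha-actinins and Tln2 encodes a talin. Tln1, for the other talin, Vcl, for vinculin, Mical2 and Daam1 held 0, but each had a summit within 1 kb of its 5′ end.

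The other lists were near the density over all genes or below it. The share of genes occupied was 37.9% over all genes. It was 59.3% over those with 50 to 200 kb of qualifying sequence, where the medians of the FGF and chromatin lists lie. The FGF, receptor tyrosine kinase and MAPK list had 53 deep summits in 22 of 29 genes (75.9%, interval 56.5 to 89.7). It had 16.6 per Mb (12.4 to 21.7), with a median strongest of 6.67. Src led it, and among the strongest were also Abl1 with 20.8, which had 7, Map2k1 with 9.26, Igf1r with 8.05 and Grb10 with 7.57. The chromatin and DNA methylation list had 59 in 20 of 35 genes (57.1%, interval 39.4 to 73.7). It had 15.8 per Mb (12.0 to 20.4), with a median strongest of 5.89. Arid1b, for a subunit of the BAF remodelling complex, led it with 15.3 among 8, then Tet2, which the pluripotency list also holds, the methyltransferase gene Nsd1 with 11.5, Kdm2b with 10.0 among 9, Hdac4 with 9.75 and Dnmt3a with 8.86.

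Long neuronal genes had the lowest density. Of the 46, 35 held a deep summit (76.1%, interval 61.2 to 87.4). The share was 37.9% over all genes and 78.5% over those with over 200 kb of qualifying sequence. The list held 154 deep summits, 3.17 per Mb (2.69 to 3.71) over 48.6 Mb, beside 8.08 per Mb in all genes with over 200 kb. That range has no upper limit, and the median of the list was 960 kb of qualifying sequence. Lengths within the range were not matched, so the gap is not one at equal length. Auts2 held 25 of them and Nav2, for a neuron navigator protein, 14. Dab1, for an adaptor of reelin signalling, had the strongest at 20.0, followed by Nav2 at 16.6, the splicing factor gene Rbfox1 at 14.6, Opcml at 12.4, Auts2 at 12.4 and Ptprd at 10.7.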

How the data were processed

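V5 ChIP-seq peaks of 1 library were used, with the peak lists of 2 control libraries. Per the file headers, the authors called peaks with MACS2 2.1.0.20140616 on single libraries, against matched input, after extending 51 bp tags to 250 bp, keeping 1 tag per position and scaling the larger dataset to the smaller, at a q-value cutoff of 0.05. Per the submitters' processing notes the build was mm10 and Bowtie 0.12.8 was used. The deposited values per peak are the pileup signal, its ratio to the input (fold enrichment), and p-value and q-value, both as −log10. They describe and rank peaks within the list.

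Genes and transcript starts came from RefSeq, GRCm38.p6. Windows matched 7454 of 9425 genes with qualifying sequence, and gave their strand. Without a genome sequence, the planned motif search around every summit and its window sizes were replaced by start windows, and the planned sequences of the top summits by windows that hold a summit. That choice, and the ranges of distance, length and GC, were made after the tables were seen. Input background was recovered as (pileup + 1) / fold enrichment − 1. Density used Poisson and shares Clopper-Pearson exact 95% intervals (scipy 1.17.1). Scripts were tested on simulated positions.

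Named are the 20 strongest members, the 10 genes with the most, the 6 densest with at least 5, the 10 longest without any, and in each of 7 gene lists the 6 strongest and those with the most, except a few that are not reported here. The members and lists were chosen with earlier results of these data known. Of the lists' symbols, Diaph2 is on chromosome X and was not used. Alternatives were other distances (5 and 20 kb), the ends of all RefSeq genes, a −log10 q of at least 10, and pileup as strength.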

Additional observations from a re-analysis of the deposited data

Results flagged for a closer look

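Chromosome X lies outside the rule and outside every comparison above, and the control lists held no peak there, so its deep intragenic summits drew attention as signal in data not otherwise used. There were 64 on X, in 33.3 Mb of qualifying sequence, or 1.92 per Mb (interval 1.48 to 2.45). The density was 0.141 times that on chromosomes 1 to 19. All of X held 600 summits, beside 44760 on chromosomes 1 to 19, so summits were few on X as a whole. The 64 had a median fold enrichment of 5.37, and 4 reached 10. Klf8, a gene of the KLF family, held 3 of those 4, with 19.8, 13.2 and 11.2, and Nhsl2 held the other at 10.0.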

How the results depend on the processing

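Values were recomputed 71 times and 45 stayed within the interval or 1.5 times the main value. The density ratio and the log2 difference kept their direction in every setting. The other values are counts and shares recomputed without a comparison group, so they have no direction to change. Of the 45, 4 are control overlaps that the 0 found at 1 bp fixes, which says nothing of stability. Counts of peaks follow from the settings themselves. With 5 kb in place of 10 kb, the share of summits that are deep intragenic was 27.9%, the density ratio over all other sequence 0.773, the log2 difference of median fold enrichment -0.063 and the 5′ part of the gene held 37.0%. With 20 kb they were 14.9%, 0.594 and -0.020, with 2339 host genes and 50.0% of the FGF list occupied. With the ends of every RefSeq gene they were 17.1%, 0.629 and -0.018. At a −log10 q of at least 10 there were 4375 members in 2275 genes, 20.4% of summits, with a density ratio of 0.634 and a log2 difference of -0.022. There 25.4% reached a fold enrichment of 10, 39.9% of hosts had a summit at an end and 86.4% of windows held the KLF core. Of all 9425 genes with qualifying sequence, 2275 were hosts at this setting. The share of genes occupied was 28.6% of the chromatin list, 48.3% of the FGF list, 71.4% of the actin list and 54.3% of the neuronal list. It was 46.2% of the pluripotency list, from 69.2%, and 47.1% of the trophectoderm list, from 64.7%. The Hippo list stayed at 72.7%. The cause of each was not tested beyond the smaller number of peaks. The log2 difference was -0.061 with pileup as the strength and -0.064 among peaks on the genome-wide input background. No paired analysis was possible because each group has 1 library. The motif windows of 100 and 200 bases around every summit were not run, since they need a genome sequence. A library of 23.2 M kept tags limits which weak sites were called, so the lack of a summit in a gene is the lack of a called peak.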

Other observations

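Small RNA genes lay beside some members. Of the 9606 deep intragenic summits, 21 stood within 1 kb of a miRNA gene, or 0.219% (interval 0.135 to 0.334), and 19 of the 10232 summits outside genes did, or 0.186% (0.112 to 0.290), so the intervals overlap. The strongest of the 21 was in Gpc1, 692 bp from Mir149, with a fold enrichment of 20.3. The next were beside Mir1191b in Nfic with 15.9, Mir32 in Tmem245 with 10.6, Mir7687 in Gse1 with 10.5 and Mir499 in the myosin gene Myh7b with 10.0. Transfer RNA genes were within 1 kb of 2 members (0.0208%, interval 0.00252 to 0.0752), against 39 summits outside genes (0.381%, 0.271 to 0.521).

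Strong members were spread over many genes. A fold enrichment of at least 10 was reached in 844 of the 3569 host genes (23.6%), while 51 genes held at least 3 such summits and 9 genes held at least 5. These 9 were named after their values were seen. Sh3pxd2a, for an adaptor of podosomes, had 8 among 19 deep summits, Gse1 had 7, and Ephb2, Nav1 and Pakap had 6 each. Etl4, Gtf2ird1, Mad1l1 and Rnf220 had 5 each.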
